A study of Homo sapiens with 8 samples.

Results

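Desmosomes are spot-like junctions that tie the keratin filaments of neighbouring epithelial cells together. Their membrane-spanning cadherins, the desmogleins and desmocollins, bind across the gap between cells, the armadillo proteins plakoglobin and plakophilins sit on the tails of these cadherins, and desmoplakin links that plaque to keratin. In the stratified epithelium of the cervix they carry mechanical load, and carcinoma cells that lose epithelial character commonly make fewer of them. The mRNA of 10 genes of this junction was followed on arrays, namely the cadherins DSG2, DSG3, DSC2 and DSC3, the armadillo proteins JUP, PKP1, PKP2 and PKP3, the plakin DSP, and PERP, a tetraspan membrane protein needed for desmosome assembly. These genes were taken by name, with every probe set that the platform annotation maps to only one of them. A probe set is the group of short probes that reads 1 transcript region, and it was called measured when its signal reached 500 on any of the 8 arrays. By this rule 8 of the 10 genes and 13 of their 24 probe sets were measured, out of 8961 genes and 16517 probe sets in all.

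The cells were BOKU and SKG-I, cervical cancer lines, 72 h after lipofection with an siRNA against IGF2R (siIGF2R) or a control siRNA (siCtrl). IGF2R is the receptor that carries mannose 6-phosphate-tagged enzymes to lysosomes, and the study asked what its loss does to cervical cancer cells. The groups were BOKU siIGF2R, BOKU siCtrl, SKG-I siIGF2R and SKG-I siCtrl, each with 1 RNA sample hybridized to 2 arrays. Duplicate arrays therefore carried the same RNA, their mean log2 signal was taken as 1 value, and the 2 lines served as the replicates of the siRNA comparison. All cells were cultured lines, transfected in bulk, so every group models the mean of a transfected culture. The labels do not say which siRNA against IGF2R was used. Effects of IGF2R loss and off-target effects of the siRNA cannot be told apart on these arrays.

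The targeted transcript was checked first. IGF2R (201393_s_at) had signals of 641 and 645 on the siIGF2R arrays against 7288 and 6710 on the siCtrl arrays of BOKU, and of 257 and 295 against 4120 and 3838 in SKG-I. It fell by 3.65 on the log2 scale (standard error 0.21, adjusted p = 0.0221, limma). The median signal of an array was 65.0 to 74.6, and the SD of the log2 difference between duplicates was 0.27 to 0.35 over the tested probe sets. Among epithelial markers, KRT8, a keratin of simple epithelium, lay between 7282 and 13953 on all arrays, and EPCAM, an epithelial adhesion molecule, between 17.9 and 50.8 in BOKU and between 1247 and 1536 in SKG-I. The basal keratins KRT5 and KRT14 stayed at 45.9 or less on all arrays, and the epithelial cadherin gene CDH1 was between 1.0 and 3.15 in BOKU, close to the lowest value that the scale allows.

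After IGF2R knockdown the desmosome genes did not move as one group. DSP, which encodes desmoplakin, was 5.95-fold higher with siIGF2R in BOKU and near its siCtrl level in SKG-I. DSC2, which encodes a desmocollin, was 11.2-fold lower with siIGF2R in SKG-I and 1.99-fold lower in BOKU. JUP, the plakoglobin gene, and DSG2, a desmoglein gene, were lower in both lines by smaller amounts. In the limma test over both lines, 0 of the 8 measured genes and 0 of their 13 probe sets passed an adjusted p under 0.05 in either direction, against 2.20% of all tested probe sets called higher and 2.09% called lower. At an unadjusted p under 0.05 there were 3 genes lower (JUP, DSC2 and DSG2) and 0 higher, where 12.9% of all probe sets were lower and 14.1% higher at that level. With 1 residual degree of freedom per probe set, and 4.82 added by limma from the spread of all probe sets, a difference seen in only 1 line widens the error of the mean over both. Leaving out the first siCtrl array of BOKU brought DSC2 and JUP past the threshold (adjusted p = 0.0289 and 0.0320, limma), and so did leaving out the second siIGF2R array of BOKU (adjusted p = 0.0350 and 0.0362, limma). Whether the response differed between the lines could not be tested, since 4 RNA samples leave no residual degree of freedom for that term. In such bulk samples, fewer cells that make a transcript and less of it per cell cannot be told apart.

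**Figure D1:**
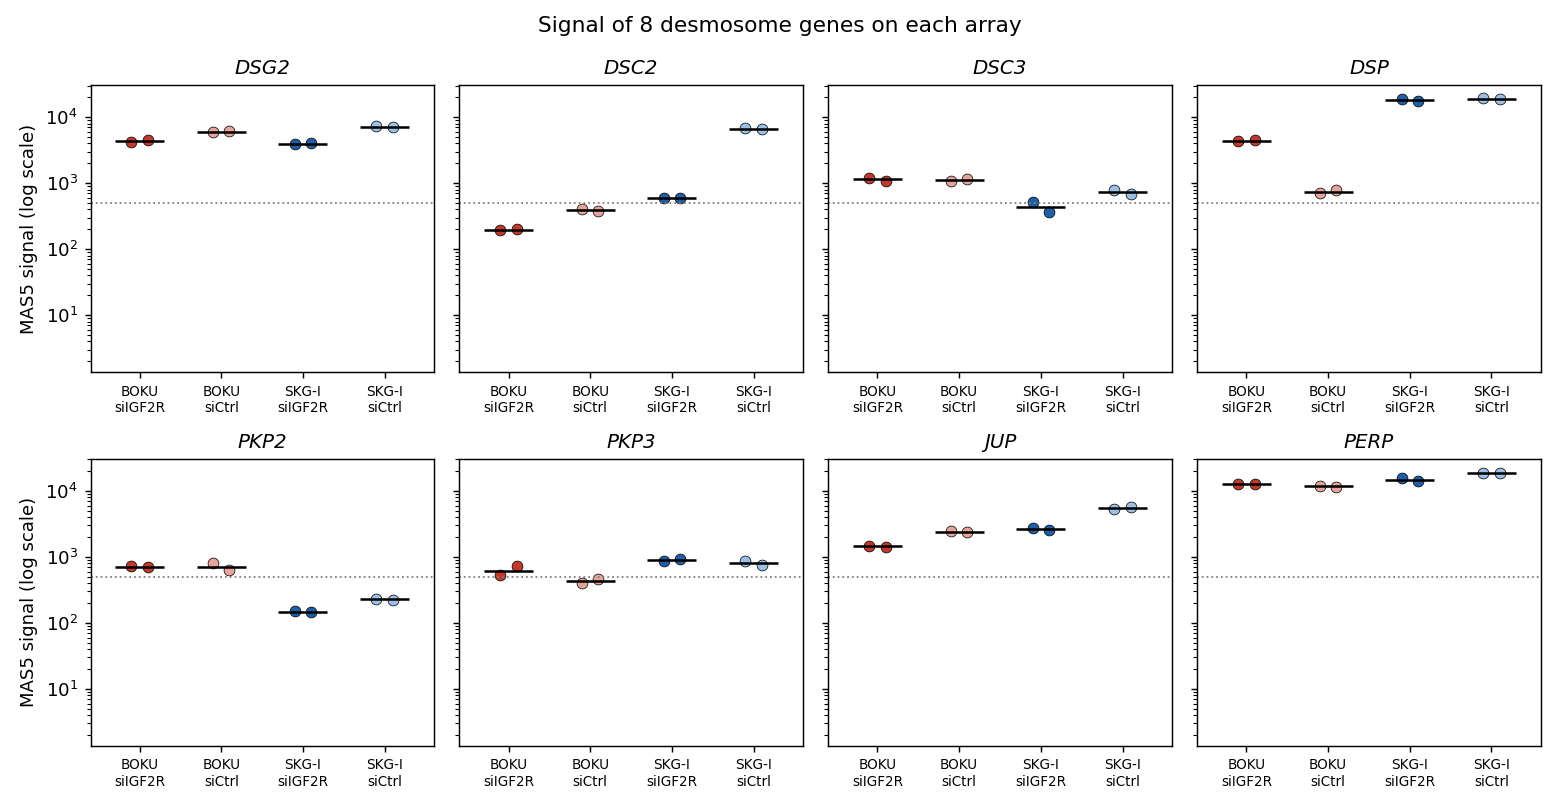
MAS5 signal (log scale) of the 8 measured desmosome genes on each of the 8 arrays, with 1 point per array, a bar at the geometric mean of the duplicates and a dotted line at the filter of 500. DSP stands apart in BOKU, where the siIGF2R arrays read 4327 and 4550 and the siCtrl arrays 711 and 783, and DSC2 in SKG-I, where the siIGF2R arrays read 596 and 598 and the siCtrl arrays 6807 and 6605.

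The sequences before the start sites of the genes with the largest or most even differences are shown to place them beside these values. Each is the 250 bases upstream of the start of the gene in RefSeq, on GRCh38.p14, written 5′ to 3′ on the strand of the gene. Capitals mark the hexamer CACCTG, the E-box core bound by SNAI and ZEB repressors, and the GC box GGGCGG, each on either strand (CAGGTG and CCGCCC are the reverse complements).
DSG2 (chr18:31497927-31498176, plus strand): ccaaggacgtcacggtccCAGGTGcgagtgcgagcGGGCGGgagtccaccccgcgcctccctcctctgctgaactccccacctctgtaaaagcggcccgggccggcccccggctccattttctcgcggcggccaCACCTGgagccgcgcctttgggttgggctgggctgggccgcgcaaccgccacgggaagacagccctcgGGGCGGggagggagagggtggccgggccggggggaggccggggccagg
DSC2 (chr18:31102422-31102671, minus strand): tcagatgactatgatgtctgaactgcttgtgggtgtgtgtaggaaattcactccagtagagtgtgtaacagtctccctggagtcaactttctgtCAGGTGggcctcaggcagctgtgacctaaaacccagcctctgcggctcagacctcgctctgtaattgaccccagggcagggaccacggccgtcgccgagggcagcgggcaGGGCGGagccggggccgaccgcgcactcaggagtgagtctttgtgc
JUP (chr17:41786712-41786961, minus strand): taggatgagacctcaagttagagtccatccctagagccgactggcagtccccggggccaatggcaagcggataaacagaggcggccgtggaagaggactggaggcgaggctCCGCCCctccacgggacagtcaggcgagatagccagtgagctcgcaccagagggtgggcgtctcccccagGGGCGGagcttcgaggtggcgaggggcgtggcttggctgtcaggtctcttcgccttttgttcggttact
DSP (chr6:7541421-7541670, plus strand): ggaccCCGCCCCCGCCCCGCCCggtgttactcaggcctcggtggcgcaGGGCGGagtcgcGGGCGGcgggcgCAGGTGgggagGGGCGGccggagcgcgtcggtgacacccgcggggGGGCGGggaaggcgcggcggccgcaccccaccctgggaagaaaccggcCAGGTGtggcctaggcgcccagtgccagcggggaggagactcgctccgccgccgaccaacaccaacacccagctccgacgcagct
The DSP window held 2 CACCTG matches and 7 GGGCGG matches, and that of DSG2 held 2 of each. DSC2 had 1 of each, whereas JUP had 0 CACCTG and 2 GGGCGG. Of the 34943 windows of the same length in the table, 17.5% held CACCTG and 42.5% held GGGCGG. Entries were found for 8 of the 10 genes, and PKP2 and PKP3 were the ones without. CACCTG was also missing from the windows of DSC3, DSG3, PKP1 and PERP, and neither the CRE TGACGTCA (1.63% of all windows) nor TATAAA (10.8%) occurred in any of the 8. The AP-1 element TGACTCA (4.22% of all windows) occurred once, in PERP. A match in these letters is no measured binding site. In RefSeq the desmosomal cadherin genes lie side by side on chromosome 18, in the order DSC3, DSC2, DSC1, DSG1, DSG4, DSG3 and DSG2, so that DSC2, the member with the largest difference in SKG-I, is the direct neighbour of DSC3.

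Among the cadherins, DSG2, the desmoglein found in simple as well as stratified epithelia, was read by 2 probe sets. Its brighter one (217901_at) gave 4251 and 4475 with siIGF2R against 5878 and 6224 with siCtrl in BOKU, and 3937 and 4021 with siIGF2R against 7257 and 7061 with siCtrl in SKG-I. Every siIGF2R array was below every siCtrl array in each line. The log2 difference was -0.47 in BOKU and -0.85 in SKG-I, and -0.66 over both lines (standard error 0.17, adjusted p = 0.0839, limma). The other probe set (1553105_s_at) gave -0.45 in BOKU and -0.42 in SKG-I, again without overlap of arrays, and missed the threshold too (adjusted p = 0.234, limma).

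DSC2 encodes the most widely expressed desmocollin and was read by 4 probe sets, of which 2 were measured. The brighter (226817_at) read 195 and 201 with siIGF2R against 412 and 378 with siCtrl in BOKU, and 596 and 598 with siIGF2R against 6807 and 6605 with siCtrl in SKG-I. The siIGF2R arrays were lower in both lines with no overlap, by -0.99 in BOKU and -3.49 in SKG-I on the log2 scale. Over both lines the difference was -2.24 (standard error 0.56, adjusted p = 0.0791, limma). In SKG-I it ranked number 23 among the 16517 tested probe sets from the lowest difference up, and 0.133% of all tested probe sets lay lower still. The second measured probe set (204751_x_at, whose suffix marks probes that may bind other transcripts) read 261 and 266 with siIGF2R against 1733 and 1263 with siCtrl in SKG-I, a difference of -2.49. It reached 500 only on those siCtrl arrays, which favours a lower siIGF2R reading in SKG-I. In BOKU its arrays overlapped, at 115 and 62.3 with siIGF2R against 110 and 97.5 with siCtrl. The remaining probe sets, 231033_at and 204750_s_at, stayed under 500 everywhere and differed by -2.60 and -2.04 in SKG-I, so that all 4 read lower on the siIGF2R arrays of this line. The BOKU difference of the brighter probe set, 1.99-fold, lay just short of the 2-fold line used below.

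DSC3, the desmocollin of basal layers in stratified epithelium, had 2 measured probe sets of 3. Its brighter one (206032_at) read 1213 and 1074 with siIGF2R against 1079 and 1147 with siCtrl in BOKU, where arrays overlapped, and 522 and 373 against 799 and 675 in SKG-I, where the siIGF2R arrays were lower. The differences were 0.04 in BOKU and -0.74 in SKG-I, with an adjusted p of 0.435 over both lines (limma). The second (206033_s_at) gave 0.19 and -0.85, and the unmeasured 244107_at gave 0.20 and -1.58 for BOKU and SKG-I in that order. DSG3, the desmoglein of stratified epithelium and the classical antigen of pemphigus vulgaris, was not measured by either of its 2 probe sets (205595_at and 235075_at).

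**Figure D2:**
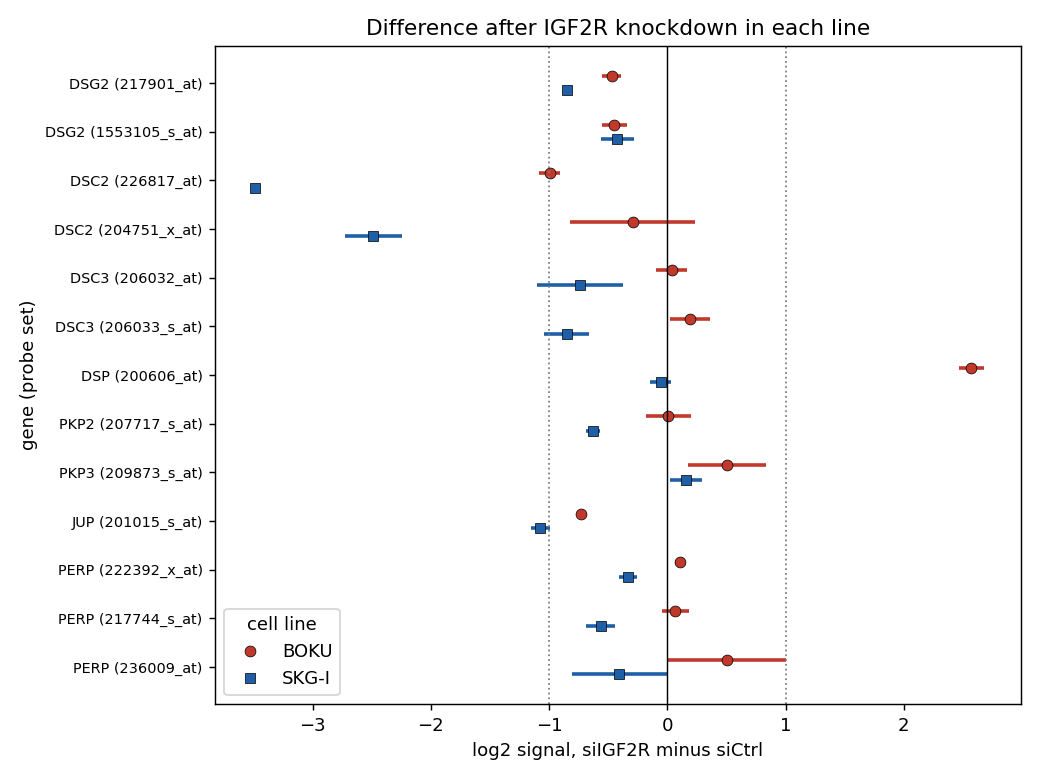
Log2 signal, siIGF2R minus siCtrl, for the 13 measured probe sets in BOKU (red circles) and SKG-I (blue squares), with a line spanning the 4 differences between single siIGF2R and siCtrl arrays and dotted lines at 2-fold. The 2 DSC2 probe sets reach -3.49 and -2.49 in SKG-I, and DSP reaches 2.57 in BOKU.

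JUP encodes plakoglobin, the armadillo protein shared by desmosomes and adherens junctions, and has 1 probe set (201015_s_at). It read 1473 and 1437 with siIGF2R against 2444 and 2384 with siCtrl in BOKU, and 2706 and 2543 against 5395 and 5660 in SKG-I. The siIGF2R arrays were below the siCtrl arrays in both lines, by -0.73 in BOKU and -1.07 in SKG-I. This was the member nearest to the threshold, with -0.90 over both lines (standard error 0.19, adjusted p = 0.0594, limma), and its SKG-I difference of 2.11-fold lay just inside the 2-fold line. JUP passed the test under 6 of the 23 alternatives, among them scaling of the arrays to a common median (adjusted p = 0.0441, limma), and the range of its adjusted p over all of them was 7.8e-05 to 0.9999. The lowest came from counting duplicate arrays as separate samples, although they share 1 RNA. The same count with a replicate block is also among those passed.

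Plakophilins are armadillo proteins that cluster the cadherins and desmoplakin laterally. PKP2, the plakophilin of simple epithelia and heart, read 727 and 703 with siIGF2R against 798 and 634 with siCtrl in BOKU, and 150 and 145 against 234 and 223 in SKG-I (207717_s_at). Arrays overlapped in BOKU, with a difference of 0.0075, while in SKG-I the siIGF2R arrays were lower by -0.63. PKP3, which is found in most desmosomes of simple and stratified epithelia, read 524 and 726 with siIGF2R against 408 and 466 with siCtrl in BOKU, and 880 and 918 against 868 and 750 in SKG-I (209873_s_at). It was the only measured gene of the set whose siIGF2R arrays were above the siCtrl arrays in both lines, by 0.50 and 0.16, and the adjusted p was 0.400 (limma). Its unmeasured probe set (209872_s_at), at 130 to 279 on all arrays, overlapped in both lines, with differences of -0.17 in BOKU and 0.05 in SKG-I. The unmeasured probe set of PKP2 (214154_s_at) reached at most 59.2. PKP1, the plakophilin of suprabasal layers, was not measured (205724_at and 221854_at), and the 4 probe sets of PKP1 and DSG3 reached at most 49 on any array, below the array medians.

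DSP encodes desmoplakin, the plakin without which desmosomes cannot hold keratin, and was read by 1 probe set (200606_at). It read 4327 and 4550 with siIGF2R against 711 and 783 with siCtrl in BOKU. In SKG-I the readings were 19152 and 17706 with siIGF2R against 19568 and 18699 with siCtrl. The BOKU groups were far apart, while the SKG-I groups overlapped. The log2 difference was 2.57 in BOKU, with 2.47 to 2.68 between single arrays of each siRNA, and -0.05 in SKG-I. DSP was number 66 of the 16517 tested probe sets from the highest BOKU difference down, and 0.394% of them lay higher. Its response gap of 2.63 between the lines was exceeded by 1.04% of tested probe sets. Over both lines the difference was 1.26 (standard error 0.56, adjusted p = 0.218, limma), so DSP did not pass. The values for SKG-I turned slightly positive, to 0.08, under quantile normalization and to 0.0018 without the second siIGF2R array.

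PERP had 3 measured probe sets of 5. The brightest (222392_x_at) read 12646 and 12646 with siIGF2R against 12084 and 11437 with siCtrl in BOKU, and 15481 and 14288 against 18497 and 18948 in SKG-I. Its suffix, like that of the second measured DSC2 probe set, marks probes that may bind other transcripts. The next (217744_s_at) read 9942 and 9434 with siIGF2R against 15152 and 13530 with siCtrl in SKG-I, and overlapped in BOKU. In SKG-I the siIGF2R arrays of all 3 measured probe sets were the lower ones, by -0.33, -0.56 and -0.41, while the BOKU differences were 0.11, 0.07 and 0.51. The third of them (236009_at) reached 500 on only 1 array, with siCtrl in SKG-I, which favours a lower siIGF2R reading there. The brightest had an adjusted p of 0.653 over both lines (limma). The unmeasured probe sets 240797_at and 1556990_at reached at most 35.9 and 4.19 on any array.

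By counts over the measured probe sets, the siIGF2R arrays of SKG-I lay below the siCtrl arrays without overlap in 11 of 13 and above in 1, where 41.2% and 40.6% of all tested probe sets did so. In BOKU 4 were lower and 5 higher without overlap, against 34.6% and 40.2% of all tested probe sets. Several of these probe sets read the same gene and are not independent. Differences of 2-fold or more were found for 1 probe set in BOKU, higher (DSP), against 7.51% of all probe sets, and for 0 lower, against 4.92%. In SKG-I there were 3 lower (2 of DSC2 and that of JUP), against 6.33%, and 0 higher, against 8.62%. DSC2 in BOKU crossed to 2-fold lower without the second siCtrl or the second siIGF2R array of that line. No desmosome probe set passed 2-fold in the same direction in both lines, where 3.15% of all probe sets were higher and 2.28% lower. The median difference of the 8 genes was 0.02 in BOKU and -0.68 in SKG-I, beside 0.03 and -0.03 for all measured genes. The signs of the small BOKU differences of DSC3, PKP2 and 2 PERP probe sets depended on the scaling, since a common median for all arrays turned them to -0.07, -0.10, -0.00011 and -0.04.

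**Figure D3:**
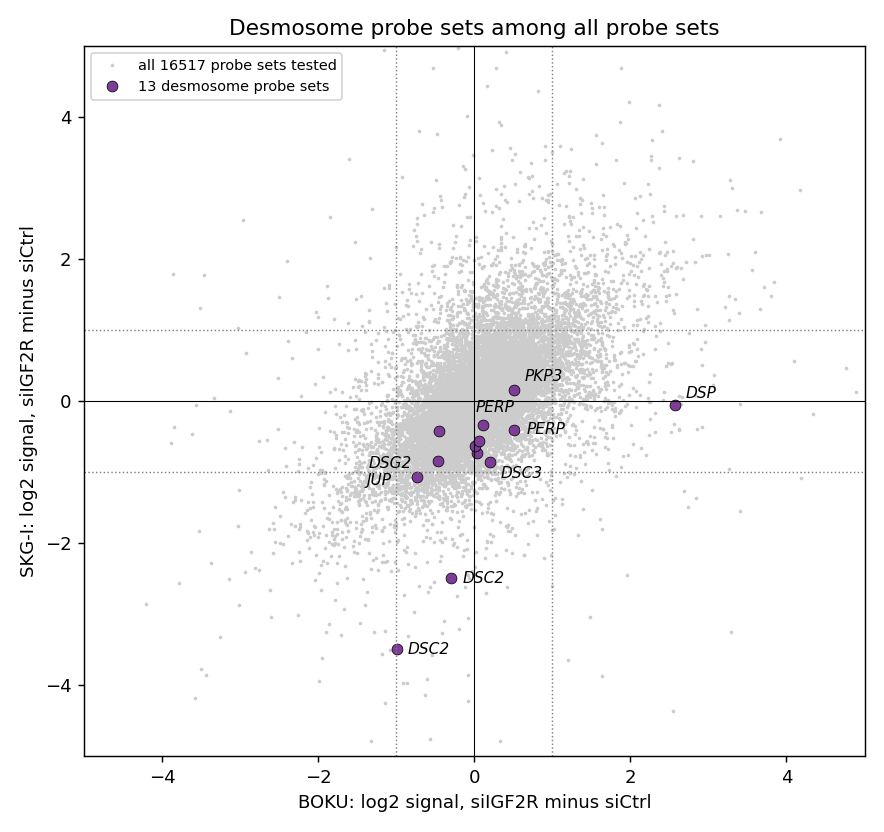
Log2 difference siIGF2R minus siCtrl in SKG-I (vertical axis) against that in BOKU (horizontal axis) for the tested probe sets (grey) and the 13 desmosome probe sets (purple), with dotted lines at 2-fold and 9 grey points outside the axes. DSP lies far right near 0 on the vertical axis, the DSC2 probe sets lie low, and JUP and DSG2 sit in the lower left.

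The levels of the markers fixed for other cell types are given beside these differences. The sums are over all listed markers on the arrays, unmeasured ones included. For the 6 squamous epithelial markers, of which 3 were measured, the sum was 4715 and 5086 with siIGF2R against 6879 and 6741 with siCtrl in BOKU, and 13021 and 12354 against 19788 and 19890 in SKG-I. Most of it came from SFN, which encodes the squamous 14-3-3 protein sigma, and in SKG-I also from TRIM29. SFN read 4439 and 4680 with siIGF2R against 6522 and 6215 with siCtrl in BOKU, while CDH3, a measured marker of the same list, was higher with siIGF2R in SKG-I, at 1646 and 1189 against 200.1 and 142. CDH3 passed the filter only through these siIGF2R arrays, which favours a higher siIGF2R reading there. The 8 markers of simple epithelium, all measured, summed to 44963 and 51954 with siIGF2R against 51042 and 53681 with siCtrl in BOKU, where arrays overlapped, and to 48326 and 46777 against 57296 and 57319 in SKG-I. For the 5 general epithelial markers, 2 of them measured, the sum was 246 and 287 with siIGF2R against 167 and 149 with siCtrl in BOKU. In SKG-I it was 2089 and 2276 against 1874 and 1880. Most of the BOKU difference came from unmeasured ELF3, at 153 and 172 with siIGF2R against 55.0 and 55.4 with siCtrl. In SKG-I the measured markers were opposed, with CDH1 higher and EPCAM lower with siIGF2R, so no direction is read for this list. The 10 mesenchymal markers, 8 of them measured, summed to 51841 and 64660 on siIGF2R arrays against 69789 and 80009 on siCtrl arrays in BOKU, and to 12814 and 13379 against 11497 and 11715 in SKG-I. Most of the BOKU sum came from VIM and FN1. In SKG-I VIM read 123 and 107 with siIGF2R against 929 and 875 with siCtrl, and COL1A1 and COL3A1 were also lower. CDH2, FN1 and ZEB1 were higher with siIGF2R in SKG-I, and ZEB2 and TWIST1 stayed below the array medians there. The epithelial and mesenchymal lists thus did not move in a single direction, and none of the listed markers of blood cells or endothelium was measured. The part of these marker levels in the desmosome differences was not tested.

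The second comparison set the lines against each other. BOKU was far lower than SKG-I in DSP and DSC2, and lower in JUP, PERP and PKP3, while PKP2 and DSC3 were higher in BOKU and DSG2 was similar. With siCtrl alone, which gives 1 RNA sample per line and no test, the BOKU signal of DSP was 25.6-fold lower and that of DSC2 17-fold lower, differences of -4.68 and -4.09 on the log2 scale. A gap of 4 or more on that scale was found for these 2 members and for 5.35% of all genes. The siCtrl arrays of the lines did not overlap for any of the 8 genes, with 2 higher and 6 lower in BOKU, where 42.0% and 45.9% of all probe sets were higher and lower without overlap.

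Over both siRNAs, limma called 2 genes higher and 5 lower in BOKU than in SKG-I at an adjusted p under 0.05. By probe sets these were 2 higher and 8 lower of 13, beside 22.3% and 23.2% of all tested probe sets. PKP2, both probe sets of DSC2 and PERP 236009_at reached 500 only in the line where they were high, which favours a difference, so these counts are a description. The line test also takes the siIGF2R and siCtrl samples of a line as its replicates. It does not measure the spread between cultures of a line treated alike. DSP differed by -3.37 (standard error 0.56, adjusted p = 0.0070, limma) and DSC2 by -2.84 (standard error 0.56, adjusted p = 0.0111, limma). For JUP the difference was -0.85 with siIGF2R and -1.19 with siCtrl, with -1.02 over both (adjusted p = 0.0092, limma). PKP2 was 1.96 higher in BOKU (adjusted p = 0.0057, limma) and DSC3 0.99 higher (adjusted p = 0.0279, limma). The calls of PERP at -0.45 (adjusted p = 0.0499, limma) and of PKP3 at -0.71 (adjusted p = 0.0486, limma) lay at the threshold. A second PERP probe set (217744_s_at) gave -0.82 (adjusted p = 0.0168, limma). The third (236009_at) gave -2.19, but it reached 500 on only 1 SKG-I array and read 72.6 to 146 in BOKU, so nothing is drawn from it. The second DSC3 probe set gave 0.78 and missed the threshold (adjusted p = 0.0967, limma). DSG2 differed by -0.06 (adjusted p = 0.809, limma).

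Leaving out any single array removed the line call of PERP, of PKP3 or of both. PERP and PKP3 were both lost without the second siCtrl or the first siIGF2R array of BOKU or without the first siCtrl array of SKG-I, which left 3 genes lower. PKP3 alone was lost without the first siCtrl array of BOKU or the second siIGF2R array of SKG-I, and PERP alone without the second siIGF2R array of BOKU, the second siCtrl array or the first siIGF2R array of SKG-I, which left 4.

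For DSP, which differed in BOKU, and DSC2, which differed mainly in SKG-I, the lines were closer to each other with siIGF2R than with siCtrl. The DSP gap was -2.05 with siIGF2R and -4.68 with siCtrl, and the DSC2 gap -1.59 with siIGF2R and -4.09 with siCtrl. The BOKU arrays were below the SKG-I arrays for both genes with either siRNA. With siIGF2R 3 genes were higher and 5 lower in BOKU without overlap of arrays, where 43.2% and 44.1% of all probe sets were. In size the gap was smaller with siIGF2R for 6 of the 8 genes and larger for PKP2, at 2.27 with siIGF2R and 1.64 with siCtrl, and for DSC3, at 1.37 with siIGF2R and 0.60 with siCtrl. Of all genes 57.4% had a smaller gap with siIGF2R. For DSG2 the sign changed, with 0.13 under siIGF2R and -0.24 under siCtrl. The median over the 8 genes was -0.39 with siIGF2R and -0.78 with siCtrl, beside -0.03 and -0.08 for all genes.

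**Figure D4:**
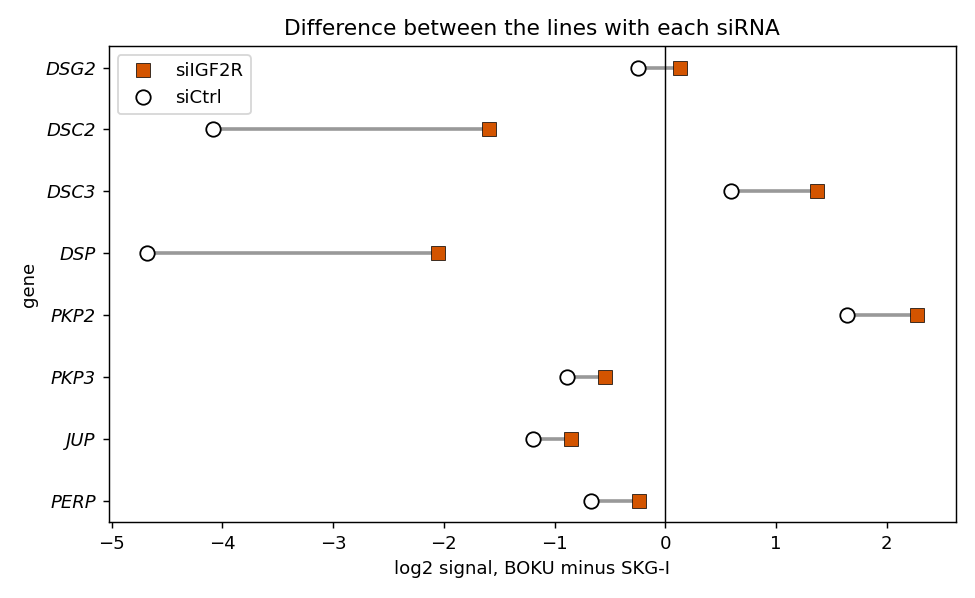
Log2 signal, BOKU minus SKG-I, of each measured desmosome gene with siIGF2R (orange squares) and siCtrl (open circles), joined by a grey line. DSP and DSC2 have the longest lines, reaching -2.05 and -1.59 with siIGF2R and -4.68 and -4.09 with siCtrl.

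Other genes of the desmosome and its neighbouring junctions were counted in the same fits. The shares over all probe sets given above (siRNA test 2.20% higher and 2.09% lower, at an unadjusted p under 0.05 14.1% and 12.9%, and line test 22.3% and 23.2%) stand beside every count that follows, and nothing particular to a list is read from it. Genes that reached 500 only in the line where they were high passed a filter that favours a difference. Their line calls are a description, as for PPL, KRT16, NECTIN3, NECTIN4, CLDN7, CXADR, ITGB4, GJB5, SNAI2, TWIST1 and ZEB2. Where the other line read near or below the array medians, the size of the line difference is uncertain too. Among the plaque linkers and further desmosome genes 6 of 12 were measured, 0 passed the siRNA test of limma (0 also at an unadjusted p under 0.05), and the line test called 1 higher and 1 lower in BOKU. These were KAZN, which encodes the periplakin partner kazrin, at 2.83 (adjusted p = 0.0019, limma), and PPL, which encodes the plakin periplakin, at -4.65 (adjusted p = 0.00096, limma). PPL read 74.7 and 44.9 with siIGF2R and 71.7 and 16.8 with siCtrl in BOKU, and 1324 and 1249 with siIGF2R and 1027 and 952 with siCtrl in SKG-I. This second plakin was thus also low in BOKU. Its BOKU signals lay near or below the array medians and overlapped, so its siRNA difference of 0.74 is not read against that of DSP.

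Of 15 keratins 6 were measured, 0 passed the siRNA test (limma; without adjustment 2 had a p under 0.05, both lower with siIGF2R), and 1 was called higher and 3 lower in BOKU. KRT16, a keratin of stressed stratified epithelium, differed by -7.28 (adjusted p = 0.0339, limma), with BOKU signals of 1.99 to 3.49, and by -2.02 with a floor of 100. KRT7 differed by -1.73 (adjusted p = 0.0040, limma) and KRT19 by 2.18 (adjusted p = 0.0077, limma), both keratins of simple epithelium. The medians of the siRNA difference were -0.02 in BOKU and -0.43 in SKG-I.

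Of 14 adherens junction genes 12 were measured, with 0 siRNA calls (2 higher and 1 lower at an unadjusted p under 0.05, limma) and 3 higher and 4 lower line calls. NECTIN3 was 4.77 higher in BOKU, LIMA1 2.98 higher and NECTIN4 lower by -3.69 (adjusted p = 0.0022, 0.0015 and 0.0071, limma). In SKG-I the median siRNA difference of this list was 0.67, above 0, where that of the desmosome genes was -0.68, and in BOKU it was 0.12. Its members CDH1 and CDH3 passed the filter only through the siIGF2R arrays of SKG-I, which favours a higher median there. Of 16 tight junction genes 7 were measured. PARD3, a polarity scaffold, read 757 and 929 with siIGF2R against 1857 and 1990 with siCtrl in BOKU, and 414 and 443 against 881 and 906 in SKG-I, and was the only gene of these lists past the siRNA test, at -1.13 (standard error 0.21, adjusted p = 0.0466, limma). Its call held under 14 of 23 alternatives, over which its adjusted p ran from 4.2e-05 to 0.9999, and was lost without the second siCtrl or first siIGF2R array of BOKU (highest adjusted p = 0.0576 on leaving out an array) or the first siIGF2R array of SKG-I. The lowest of these adjusted p-values came from counting duplicate arrays as separate samples, although they share 1 RNA. The probe set of PARD3 (221526_x_at) may bind other transcripts. Line calls in this list were 3 higher and 3 lower, among them CXADR at -3.0, CLDN1 at 2.31 and CLDN7 at -5.52 (adjusted p = 0.00076, 0.0020 and 0.0322, limma). CLDN7 had BOKU signals of 2.52 to 19.5, and with a floor of 100 its difference was -1.71 and its call was lost (adjusted p = 0.0783, limma).

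Of 9 hemidesmosome genes, which anchor keratin to the matrix, 6 were measured, with 0 siRNA calls by limma, also unadjusted, and 1 higher and 2 lower line calls (CD151 at 1.05, ITGB4 at -2.0 and LAMB3 at -1.57). ITGB4 read 62.1 to 98.8 in BOKU, and its call was lost with a floor of 100 (-1.78, adjusted p = 0.0540, limma) and without siRNA in the model (adjusted p = 0.0833, limma). The gap junction list had 2 measured of 6, and both passed the line test, GJB5 at -7.84 with BOKU signals of 1.92 to 5.85 (-3.04 with a floor of 100) and GJC1 at 1.45. Of 25 genes listed as regulators of desmosomes, among them transcription factors, kinases and sheddases, 16 were measured, 0 passed the siRNA test (3 higher and 1 lower at an unadjusted p under 0.05, limma), and 11 were called higher and 2 lower in BOKU. The 3 named by the size of the fitted difference, SNAI2, TWIST1 and ZEB2, encode transcription factors known from epithelial-mesenchymal transition. SNAI2 was 5.50 higher in BOKU (adjusted p = 0.00017, limma). TWIST1 was 6.15 higher (adjusted p = 0.0019, limma) and ZEB2 6.67 higher (adjusted p = 0.0156, limma), with SKG-I signals of 7.5 to 28 and of 1.04 to 31.6 that lay below the array medians. With a floor of 100 the differences were 3.20 for TWIST1 and 2.32 for ZEB2, so no order among these genes is read.

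**Figure D5:**
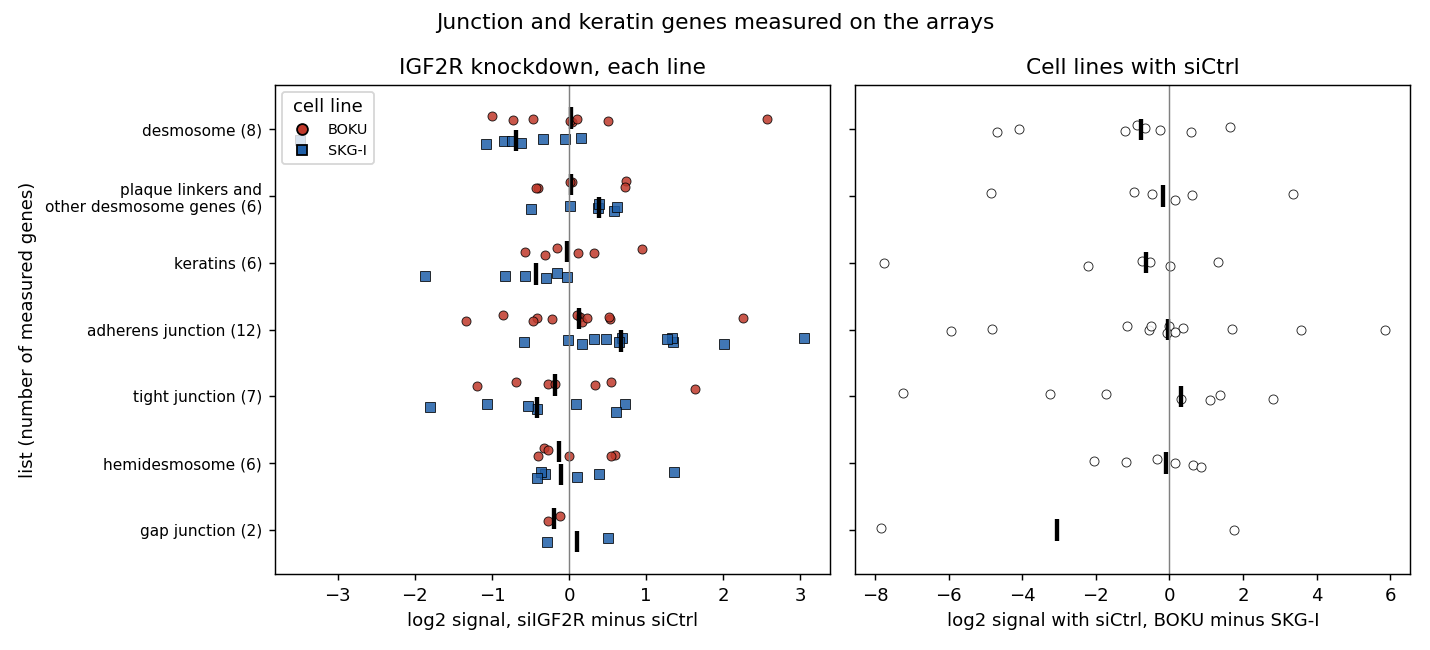
Measured genes of the desmosome list and 6 further lists, 1 point per gene, with a vertical bar at the median. The left panel gives log2 siIGF2R minus siCtrl in BOKU (red circles) and SKG-I (blue squares) and the right panel log2 BOKU minus SKG-I with siCtrl, and the desmosome medians are 0.02, -0.68 and -0.78.

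The median profile of the 8 genes over the 4 RNA samples, each gene centred on its own mean, was -0.22 in BOKU siIGF2R, -0.21 in BOKU siCtrl, -0.18 in SKG-I siIGF2R and 0.42 in SKG-I siCtrl, so that SKG-I siCtrl alone stood high. The genes outside all lists with the smallest Euclidean distance to it on the log2 scale, among 8889 genes and over these 4 samples, were MLLT10 (0.10), CCDC18-AS1 (0.11) and CEP44 (0.11).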

How the data were processed

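Biotinylated cRNA of 4 RNA samples was hybridized to 8 GeneChip HG-U133 Plus 2.0 arrays. The authors deposited an intensity for each probe set on each array, namely the linear MAS5 signal after background subtraction and scaling, with a lowest value of 1. The methods state a mean of 1000 as the scaling target, while the deposited trimmed means lie between 496.6 and 497.3. No further normalization was applied. Signals were log2-transformed without a floor, duplicate arrays were averaged, and 62 control probe sets were left out. Probe sets that reached 500 on any array were tested with limma 3.58.1 in R 4.3.3 (cell line and siRNA as factors, eBayes with a trend, two-sided, Benjamini-Hochberg over 16517 probe sets, threshold 0.05). The procedure was tested on simulated data with a common spread for all probe sets and siRNA changes equal in both lines. It was not tested on changes that differ between the lines, as for DSP here. The number of arrays limits the precision of every value, and p-values of the siRNA effect measure the spread between 2 lines, each a single RNA sample. Those of the line difference measure how far that difference varies between the 2 siRNAs, again with a single RNA sample each.

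Symbols came from the platform annotation, updated by gene ID to RefSeq for 41037 of 41091 probe sets with 1 gene. A gene was represented by its measured probe set with the highest mean log2 signal. Named were all 10 members with their probe sets, IGF2R, up to 3 called genes per list and test with the largest change, and the 3 genes nearest to the median profile. Outside this rule are the cell type markers named as a check of the cells (KRT5, KRT8, KRT14, EPCAM and CDH1). So are those named beside the marker sums (SFN, TRIM29, CDH3, ELF3, VIM, FN1, COL1A1, COL3A1, CDH2 and ZEB1). The genes said to be chosen after their values were seen also lie outside it. The members and lists were chosen with earlier results of these data known. Alternatives covered the filter, normalization, floor, added constant, averaging, variance model, block, arrays as samples, the methods' t-test, probe set choice, fold threshold and each array left out. The signal carries no count or detection call, and coordinates apply only to the RefSeq windows, since no build is given in the sources used here for the probes.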

Additional observations from a re-analysis of the deposited data

Results flagged for a closer look

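For 3 probe sets the siIGF2R arrays lay above the siCtrl arrays in BOKU and below them in SKG-I, in each line without overlap. Of all tested probe sets, 40.2% were higher without overlap in BOKU and 41.2% lower in SKG-I. The share with both was not counted, so nothing particular to these genes is read from the 3. The difference between the lines was not tested, since 4 RNA samples allow no such term. The DSC3 probe set 206033_s_at read 745 and 690 with siIGF2R against 678 and 579 with siCtrl in BOKU, and 275 and 309 against 567 and 487 in SKG-I, differences of 0.19 and -0.85 on the log2 scale. The PERP probe set 222392_x_at had differences of 0.11 and -0.33, and its BOKU value was -0.00011 with the arrays scaled to a common median. The PERP probe set 236009_at read 146 and 84.5 with siIGF2R against 84.3 and 72.6 with siCtrl in BOKU, and 441 and 311 against 442 and 545 in SKG-I, differences of 0.51 and -0.41, so that its closest arrays were almost equal in each line. It passed the filter only through 1 siCtrl array of SKG-I, which favours a lower siIGF2R reading there. The remaining measured probe sets of these genes had the same signs in BOKU and SKG-I. They were 206032_at (DSC3), at 0.04 and -0.74, and 217744_s_at (PERP), at 0.07 and -0.56. Their arrays overlapped in BOKU, so they were not flagged.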

How the results depend on the processing

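A filter at 1000 left 1 higher and 3 lower desmosome line calls, 229 higher siRNA calls over all probe sets and 0 lower in the context lists, and no filter gave 3 lower desmosome line calls, 2 genes 2-fold higher (DSP and PKP1) and 1 lower (DSG3) in BOKU, and 2 context genes lower. Quantile normalization gave 1 desmosome gene 2-fold lower in BOKU, 241 higher siRNA calls and 0 context genes, and turned PERP 222392_x_at to 0.010 and PERP 236009_at to -0.046. Median scaling gave 1 lower siRNA call (JUP), 3 lower line calls, 1 gene 2-fold lower in BOKU and 545 lower siRNA calls over all probe sets, so that 37.1% of the calls were higher, against 51.2% as deposited. It moved the median of all probe sets to -0.07 in BOKU and -0.11 in SKG-I, against 0.03 and -0.0027, and PERP 236009_at to -0.054. Scaling to a mean of 1000 gave 223 lower siRNA calls and 0 context genes, and moved the siCtrl line median to -0.16, against -0.05. A floor of 100 turned PERP 236009_at to -0.067, and an added constant of 64 turned it to -0.020 and gave JUP as 1 lower call with 655 higher and 575 lower over all. The arithmetic mean of duplicates left 3 lower line calls. Without the variance trend there were 1 higher and 3 lower line calls, and 0 siRNA calls over all probe sets by limma (3865 at an unadjusted p under 0.05) and in the context lists. Without the block for the other factor there were 1 higher and 1 lower desmosome line call (PKP2 and DSP), 0 siRNA calls by limma (625 unadjusted), 1508 higher and 1473 lower line calls over all, and in the context lists 0 siRNA and 12 higher and 10 lower line calls. The median of a gene's probe sets left 1 higher line call. Dropping probe sets with the _s_at and _x_at suffixes left 5 genes, with 1 higher and 3 lower line calls, 1 gene 2-fold lower in SKG-I and 0 context siRNA calls. At 1.5-fold 2 genes were lower in BOKU and 5 in SKG-I, and at 3-fold 1 in SKG-I. The methods' t-test with the 2-fold rule covers within a line only the spread between 2 hybridizations of 1 RNA and is no test of the siRNA. Over all probe sets it passed 1047 higher and 717 lower in BOKU (332 and 258 after Benjamini-Hochberg), and 1246 and 951 in SKG-I (975 and 771). The cause of these shifts was not tested.

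Counting the 8 arrays as separate samples, although duplicates share 1 RNA, gave 1 higher and 3 lower desmosome siRNA calls, 4269 higher and 3833 lower over all, 5895 and 6295 for the lines, and 12 and 8 in the context lists. With the array number as a replicate block, these were 0 and 3 (DSG2, DSC2 and JUP), 3992 and 3609, 5797 and 6181, and 11 and 8. The numbers did not pair the arrays, since deviations of same-numbered arrays correlated by -0.0061 to 0.13 over probe sets.

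Leaving out each array in turn gave 0 to 2 lower desmosome siRNA calls, 3 to 4 lower line calls, 0 to 1 genes 2-fold lower in BOKU, 216 to 838 higher and 233 to 759 lower siRNA calls over all probe sets, and 0 to 1 context genes in each direction (KLF5 higher without the second siIGF2R array of BOKU, named after its value was seen). PERP 236009_at ranged between -0.15 and 0.25, and was below 0 without the second siCtrl array (-0.0043) or the first siIGF2R array (-0.15) of BOKU or the first siCtrl (-0.025) or first siIGF2R array (-0.076) of SKG-I. No alternative turned the direction of a called line difference of a desmosome gene. The 4 probe sets of DSG3 and PKP1 lay below the array medians throughout, so no difference is read from them.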

Other observations

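These genes lie outside the naming rule and were chosen after their values were seen. The classical cadherins of the adherens junction list differed from the desmosomal ones in SKG-I. CDH3, which encodes P-cadherin, read 1646 and 1189 with siIGF2R against 200.1 and 142 with siCtrl in SKG-I. CDH1, which encodes E-cadherin, read 619 and 652 against 143 and 173. CDH2, the N-cadherin gene, read 4125 and 4391 with siIGF2R against 1608 and 1743 with siCtrl. The log2 differences in SKG-I were 3.05 for CDH3, 2.01 for CDH1 and 1.35 for CDH2. In BOKU they were 0.53, -1.34 and 0.14 for the same genes, with CDH1 at or near the lowest value. CDH3 and CDH1 passed the filter only through the siIGF2R arrays of SKG-I, which favours a higher siIGF2R reading there. For both, the contrast with the desmosomal cadherins is therefore a description. CDH2 lay above the filter on all arrays. None of the 3 passed limma over both lines, with adjusted p of 0.136 for CDH3, 0.957 for CDH1 and 0.195 for CDH2.

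KRT15, a keratin of basal epithelial cells, stayed under 500. It read 25.3 and 16.2 with siIGF2R against 193 and 269 with siCtrl in BOKU, and 38.7 and 14.5 against 280 and 421 in SKG-I. With the filter of 500 on the deposited signals it was therefore not tested. It passed limma where the filter was lowered to 250 or dropped. At 250 it entered only through siCtrl arrays, which favours a lower siIGF2R reading.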
